A study of Homo sapiens with 6 samples.

Results

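The laminin chain genes were described in TC28a2 cells, an immortalized human chondrocyte line, after treatment with mocetinostat, an inhibitor of class I histone deacetylases (HDACs). The members were taken by gene symbol from the table of counts per gene: *LAMA1*, *LAMA2*, *LAMA3*, *LAMA4* and *LAMA5* for alpha chains, *LAMB1*, *LAMB2* and *LAMB3* for beta chains, and *LAMC1* for a gamma chain, 9 of the 60623 genes in the table. All 9 passed the expression filter and were tested, *LAMA2* through its treated samples alone, since none of its DMSO samples reached the filter's level of 2.01 CPM. Another 2 laminin genes, *LAMB4* and *LAMC3*, are given beside them.

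RNA-Seq of total RNA compared cells treated with 2 μM mocetinostat and cells treated with DMSO, the solvent, each for 24 hours, with 3 samples per condition. According to the study's methods these came from independent experiments. Both conditions used the same line, so the samples vary by culture and not by donor. The comparison asks which genes change their mRNA level when HDACs are inhibited in chondrocytes. Each bulk value averages over a culture, so more cells expressing a chain and more RNA per cell cannot be told apart.

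Laminins are secreted glycoproteins of basement membranes and, in cartilage, of the pericellular matrix around chondrocytes. Each is a heterotrimer of 1 alpha, 1 beta and 1 gamma chain joined by a coiled coil, and its name lists the chain numbers, so that laminin-511 holds alpha5, beta1 and gamma1. The beta and gamma chains first form a dimer inside the cell, and an alpha chain is needed for secretion. The alpha chain carries the globular domains that bind integrins and dystroglycan, and chains do not combine freely.

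Among the 9 chain genes, the quasi-likelihood test of edgeR, with Benjamini-Hochberg adjustment over all genes, placed 7 higher after mocetinostat at an adjusted p under 0.05, 1 lower, and 1 past neither side. Over all 13966 genes tested, 32.9% were higher and 31.4% lower by the same rule. With the added requirement of a log2 fold change over 1 (an upregulated gene, URG), 3 of 9 chains were called, *LAMA2*, *LAMA3* and *LAMB3*, against a background of 20.2% of genes. *LAMA2*, counted among the 7 and the 3, entered the test only through its treated samples. Its place in these counts is a description, and the calls of *LAMA3* and *LAMB3* did not depend on such an entry. No chain was called a downregulated gene (DRG) by edgeR, against a background of 8.18%, while 1 chain was lower at an unadjusted p under 0.05 and DESeq2 called 3 chains higher and 0 lower. The median log2 fold change was 0.74 over the 9 chains and -0.0021 over all genes tested.

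The promoters of the 3 called chains are shown beside those of *LAMA5* and *LAMC1*, an abundant alpha and an abundant gamma chain, which rose by less. The sequences are the 250 bases before the gene start from RefSeq (GRCh38.p14), 5′ to 3′ on the gene's strand, and the table used here paired 9 of these 11 laminin genes with such a window, leaving *LAMA1* and *LAMC3* unmatched. They are chr6:128882888-128883137 (plus strand) for *LAMA2*, chr18:23872770-23873019 (plus) for *LAMA3*, chr1:209652426-209652675 (minus) for *LAMB3*, chr20:62367313-62367562 (minus) for *LAMA5* and chr1:183023170-183023419 (plus) for *LAMC1*. Capitals mark every match, on either strand, to the GC box GGGCGG, the CACCC box CCACCC, the AP-1 motif TGANTCA, the CRE TGACGTCA, the CCAAT box CCAAT and the TATA box TATAAA, and neighbouring CACCC boxes in *LAMC1* overlap by 1 base.
LAMA2: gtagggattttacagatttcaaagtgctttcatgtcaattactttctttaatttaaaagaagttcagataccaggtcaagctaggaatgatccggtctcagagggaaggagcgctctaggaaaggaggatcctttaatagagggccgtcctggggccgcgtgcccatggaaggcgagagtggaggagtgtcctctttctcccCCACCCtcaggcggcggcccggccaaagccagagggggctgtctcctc
LAMA3: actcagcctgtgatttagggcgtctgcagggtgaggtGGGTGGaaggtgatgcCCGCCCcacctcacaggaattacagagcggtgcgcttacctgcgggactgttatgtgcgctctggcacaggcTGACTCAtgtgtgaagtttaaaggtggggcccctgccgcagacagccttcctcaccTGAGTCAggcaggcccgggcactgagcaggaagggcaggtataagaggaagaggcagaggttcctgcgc
LAMB3: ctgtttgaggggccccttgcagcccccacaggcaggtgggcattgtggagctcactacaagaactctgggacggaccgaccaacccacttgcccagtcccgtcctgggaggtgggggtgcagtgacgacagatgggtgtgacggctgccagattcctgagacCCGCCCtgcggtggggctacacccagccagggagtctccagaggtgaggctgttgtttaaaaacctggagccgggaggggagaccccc
LAMA5: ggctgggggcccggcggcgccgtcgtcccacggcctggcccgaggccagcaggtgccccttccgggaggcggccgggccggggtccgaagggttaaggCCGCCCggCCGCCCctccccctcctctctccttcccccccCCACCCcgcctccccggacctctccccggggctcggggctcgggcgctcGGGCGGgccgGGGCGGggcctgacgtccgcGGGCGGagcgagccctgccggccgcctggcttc
LAMC1: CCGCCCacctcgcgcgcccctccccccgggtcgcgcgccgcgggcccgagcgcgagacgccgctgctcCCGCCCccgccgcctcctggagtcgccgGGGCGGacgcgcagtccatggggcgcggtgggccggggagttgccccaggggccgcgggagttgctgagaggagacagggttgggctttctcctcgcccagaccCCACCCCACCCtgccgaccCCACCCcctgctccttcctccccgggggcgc

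The 3 called chains did not share a set of these motifs. The *LAMA3* promoter held 2 AP-1 motifs, which start 125 and 69 bases before the gene start, with 1 GC box and 1 CACCC box. The AP-1 motif occurred in 6.57% of 35116 RefSeq promoters of this length (27305 genes, some with several starts). The *LAMA2* promoter held 1 CACCC box and the *LAMB3* promoter 1 GC box, motifs found in 31.3% and 42.6% of promoters.

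The windows also differed in base composition. GC content was 53.2% for *LAMA2*, 60.4% for *LAMA3* and 64% for *LAMB3*, around the median of 58% over all promoters. It was 82.8% for *LAMA5* with 5 GC boxes, 79.6% for *LAMC1* with 3, and 70.4% for *LAMB1* with 4. These last 3 windows each held 28 to 32 CpG dinucleotides, against 8 or 9 in the windows printed for the 3 called chains and a median of 11 over all promoters. Composition did not follow the calls, since *LAMA4* and *LAMB2*, also not called, had 48.4% and 58.4% GC with 5 and 12 CpG. These are descriptions of letters in a window, with no test. The *LAMB3* gene has 3 RefSeq starts, and the window of the start farthest downstream held 1 AP-1 motif and 3 CpG, while the one between held 10 CpG. The *LAMA3* window precedes a transcript start at position 23873020 that lies 183567 bases inside the gene as GENCODE draws it, and gene counts do not separate the transcripts.

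Total counts per sample ran from 4873426 to 11031132 with DMSO and from 1619344 to 5089542 with mocetinostat. Levels are given in CPM, the count of a gene scaled to a common library total after correction by edgeR's TMM factors, which lay between 0.985 and 1.01. Of 12 chondrocyte markers, 6 had a mean of at least 1 CPM with DMSO and 11 with mocetinostat, and *CNMD* had 0 counts in every sample. Their summed level was 117 to 141 CPM with DMSO and 262 to 304 CPM with mocetinostat.

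The alpha chains, which carry the receptor-binding domains, were all higher: 5 of 5 had an adjusted p under 0.05, and in all 5 the conditions did not overlap, as in 33.7% of all genes in that direction. *LAMA2* is among these 5 although it entered the test only through its treated samples. *LAMA3* (ENSG00000053747; chr18:23689453-23956222, plus strand), the alpha chain of epithelial laminins, had 6.60, 6.04 and 5.45 CPM in DMSO replicates 1, 2 and 3 and 38.3, 39.7 and 34.8 CPM in the mocetinostat replicates. Every treated sample was well above every control, with little spread inside either condition. edgeR estimated a log2 fold change of 2.62 ± 0.21 (SE, adjusted p = 1.04e-18), a 6.14-fold increase with a 95% interval of 4.62 to 8.16, on 29 to 73 counts per DMSO sample and 64 to 193 per mocetinostat sample. Over 14 alternatives the log2 fold change of *LAMA3* ran from 2.37 to 3.16 and was called in each.

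*LAMA2* (ENSG00000196569; chr6:128883138-129516566, plus strand), the alpha chain of muscle and nerve basement membranes, was the scarcest of the 9 chains. It had 11, 4 and 8 reads in the DMSO samples (0.995, 0.833 and 1.18 CPM) and 26, 9 and 13 reads in the mocetinostat samples (5.15, 5.58 and 5.39 CPM). The conditions were clearly apart in CPM although the raw counts overlapped, because the treated libraries were smaller. This was a log2 fold change of 2.37 ± 0.49 (SE, adjusted p = 2.49e-05 by edgeR), and its 95% interval of 2.61- to 10.2-fold was the widest among the 9 chains. Because *LAMA2* entered the test only through the condition in which it was higher, its call had to point upward and is given as a description. Up to 2.99% of its exons overlapped genes on the opposite strand, of which the gene with the most overlap had at most 6 counts in a sample.

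*LAMA5* (ENSG00000130702; chr20:62307955-62367312, minus strand) encodes the alpha chain of laminin-511 and laminin-521, widespread in adult basement membranes. It had 139, 132 and 156 CPM with DMSO and 277, 290 and 270 CPM with mocetinostat, so the conditions were far apart relative to their spread. On the log2 scale the change was 0.97 ± 0.09 (SE, adjusted p = 4.5e-16 by edgeR), just inside the limit of 1 for a call, and 4 of 14 alternatives put it past that limit. The exons of *LAMA5* share 1.71% of their bases with *ADRM1* on the opposite strand, a proteasome subunit gene at 177 to 246 CPM, and whether the counting used strand is not given in the sources used here.

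*LAMA1* (ENSG00000101680; chr18:6941742-7117797, minus strand), the alpha chain of laminin-111, which is best known from embryonic basement membranes, had 126, 127 and 128 CPM with DMSO and 198, 185 and 187 CPM with mocetinostat. The controls were almost identical and all treated samples lay above them. edgeR estimated a log2 fold change of 0.59 ± 0.09 (SE, adjusted p = 5.02e-08). A gene on the opposite strand covers 10.3% of its exons and had 0 counts in all samples.

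*LAMA4* (ENSG00000112769; chr6:112107931-112254939, minus strand), an alpha chain of vessels and of mesenchymal cells, had 12.7, 9.16 and 9.14 CPM with DMSO and 15.5, 26.0 and 14.1 CPM with mocetinostat. The lowest treated sample was only slightly above the highest control, and mocetinostat replicate 2, the smallest library, stood above the other two. This was a log2 fold change of 0.74 ± 0.24 (SE, adjusted p = 0.00481 by edgeR). Without mocetinostat replicate 2 it was 0.48 (adjusted p = 0.0902 by edgeR). It also missed the threshold with DESeq2 (0.76, adjusted p = 0.0547) and without the expression filter (0.48, adjusted p = 0.128 by edgeR).

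**Figure D1:**
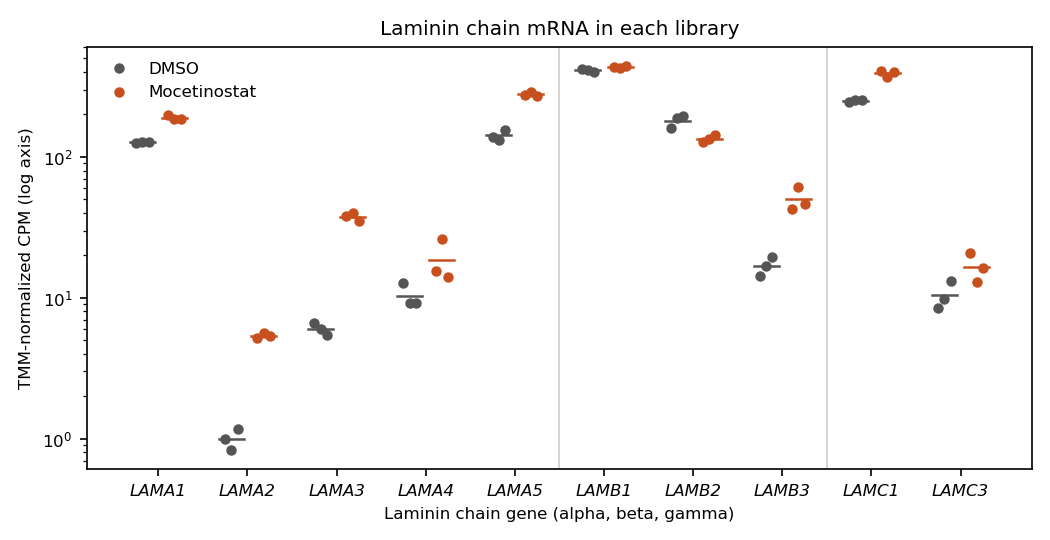
TMM-normalized CPM (log axis) of 10 laminin chain genes in each of 3 DMSO-treated and 3 mocetinostat-treated samples; points are samples and short lines are means. All 5 alpha chains lie higher after mocetinostat, *LAMB1* lies between 399 and 440 CPM in every sample, *LAMB2* lies lower on this scaling (not when libraries are scaled to *GAPDH*), and *LAMB4*, with 0 counts in every DMSO sample, is not drawn.

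The beta chains went different ways. *LAMB3* (ENSG00000196878; chr1:209614870-209652425, minus strand), a beta chain best known from skin, where it helps to fix epidermis to dermis, had 14.2, 16.7 and 19.5 CPM with DMSO and 43.0, 60.7 and 46.4 CPM with mocetinostat. The lowest treated sample was more than 2 times the highest control. On the log2 scale the change was 1.55 ± 0.17 (SE, adjusted p = 7.41e-13 by edgeR), a 2.94-fold increase with a 95% interval of 2.33 to 3.71. It was called in 14 of 14 alternatives, with log2 fold changes of 1.30 to 2.08.

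*LAMB1* (ENSG00000091136; chr7:107923799-108003213, minus strand), a beta chain that is widespread in basement membranes, had 418, 415 and 399 CPM with DMSO and 435, 429 and 440 CPM with mocetinostat. The conditions did not overlap, but the gap between them was small. edgeR estimated a log2 fold change of 0.08 ± 0.07 (SE, adjusted p = 0.328), with a 95% interval of -0.06 to 0.23, or at most 1.17-fold upward, under TMM scaling. With scaling to *GAPDH* it was 0.61 (adjusted p = 4.99e-08 by edgeR) and without the filter -0.17 (adjusted p = 0.121), so its direction depended on the processing. Its exons share 1.61% of their bases with *DLD*, a metabolic enzyme gene on the opposite strand at 103 to 129 CPM.

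*LAMB2* (ENSG00000172037; chr3:49121114-49133118, minus strand), the beta chain of neuromuscular and kidney basement membranes, had 160, 188 and 194 CPM with DMSO and 127, 134 and 143 CPM with mocetinostat. All treated samples lay below all controls, as in 32.8% of all genes in that direction. This was a log2 fold change of -0.43 ± 0.10 (SE, adjusted p = 7.17e-05 by edgeR), a decrease with a fold of 0.744. The value was 0.10 (adjusted p = 0.409 by edgeR) when libraries were scaled to *GAPDH*, which moved the median of all genes by 0.53. *GAPDH* itself had 3130, 3030 and 2950 CPM with DMSO and 2030, 2190 and 2110 CPM with mocetinostat. Its log2 fold change was -0.53 (adjusted p = 2.58e-12 by edgeR), so it was not a stable reference under TMM scaling. Such a scaling shifts all genes by about the same amount, so it could not change the place of *LAMB2* below the typical gene.

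*LAMC1* (ENSG00000135862; chr1:183023420-183145592, plus strand), the gamma chain shared by most laminins, had 246, 255 and 252 CPM with DMSO and 407, 368 and 401 CPM with mocetinostat. The controls were tight and all treated samples lay far above them. On the log2 scale the change was 0.65 ± 0.08 (SE, adjusted p = 3.37e-11 by edgeR), and every alternative kept the adjusted p under 0.05.

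The other measured chains were scarce. *LAMC3*, a gamma chain, had 8.50, 9.79 and 13.1 CPM with DMSO and 20.8, 13.0 and 16.2 CPM with mocetinostat. Its conditions overlapped, and its log2 fold change of 0.75 (adjusted p = 0.00369 by edgeR) lost significance without mocetinostat replicate 1 (0.5, adjusted p = 0.146). *LAMB4*, a beta chain, had 0 counts in every DMSO sample and 1 count in each mocetinostat sample, too few to be tested.

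**Figure D2:**
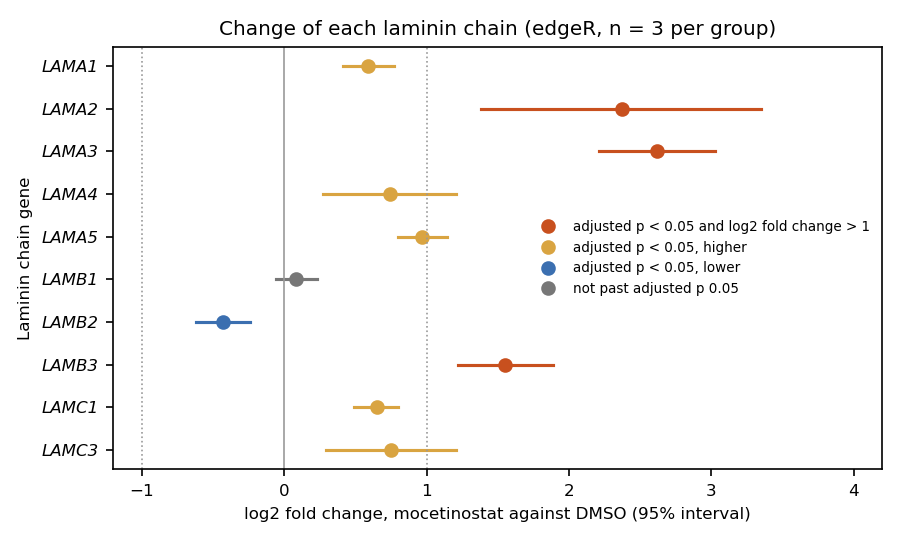
Log2 fold change of mocetinostat against DMSO for 10 laminin chain genes from edgeR, with bars for the 95% interval and dotted lines at the limits for a call. *LAMA3*, *LAMA2* and *LAMB3* lie beyond the limit, the interval of *LAMB1* crosses 0, and *LAMB2* lies below 0 at -0.43 (0.10 with scaling to *GAPDH*).

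Levels of different chains were compared as CPM per kilobase of exon, which corrects for gene length. With DMSO the order was *LAMC1* (29.7 ± 0.536, SD, n = 3), *LAMB2* (26.3 ± 2.61), *LAMB1* (22.1 ± 0.543), *LAMA5* (9.95 ± 0.858), *LAMA1* (8.01 ± 0.0638) and *LAMB3* (3.61 ± 0.565), each separate from the next over the samples. Below these came *LAMC3* and *LAMA4*, whose samples overlapped, then *LAMA3* at 0.416 ± 0.0397 and, above only *LAMB4*, *LAMA2* at 0.0379 ± 0.00655. The abundant beta and gamma chains were thus each above the most abundant alpha chain.

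With mocetinostat the order of these per-length levels was *LAMC1* (46.4 ± 2.47), *LAMB1* (23.4 ± 0.305), *LAMB2* (19.6 ± 1.22), *LAMA5* (19.5 ± 0.706), *LAMA1* (12 ± 0.452), *LAMB3* (10.8 ± 2.02) and *LAMA3* (2.59 ± 0.172). Per kilobase of exon, the samples of *LAMB2* overlapped those of *LAMA5*, and those of *LAMA1* overlapped those of *LAMB3*. *LAMA3* stood above *LAMC3* and *LAMA4*, which were above it with DMSO, although with the MANE or coding lengths its treated samples overlapped theirs in part. The place of *LAMB1* depends on the length used, since the union of its annotated exons is 18592 bases and its MANE Select transcript 5650 bases. Per kilobase of MANE transcript, *LAMB1* stood first in both conditions, at 72.6 with DMSO and 77 with mocetinostat. The order of *LAMA5* and *LAMA1* with DMSO also turned with the length, with means of 12.4 and 13.2 per kilobase of MANE transcript and 12.4 and 13.8 per kilobase of coding sequence.

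Summed per length, the alpha chains had 19.2, 18.5 and 20.2 CPM per kilobase with DMSO and 36, 37.1 and 34.5 with mocetinostat. The beta chains summed to 48.9, 53.3 and 53.9 and to 51.2, 55.7 and 54.6. The alpha sum was higher without overlap and the beta sum overlapped, under all 3 gene lengths tried and with TMM scaling. The sums were not recomputed with *GAPDH* scaling. That scaling gave log2 fold changes of 0.61 for *LAMB1*, 0.10 for *LAMB2* and 2.08 for *LAMB3*, so the overlap of the beta sum holds for TMM scaling only.

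Shares within each sum do not depend on how libraries are scaled against each other. In the beta sum, *LAMB3* held 6.25%, 6.73% and 7.77% with DMSO and 18.1%, 23.5% and 18.3% with mocetinostat. *LAMB2* held 47.8%, 51.4% and 52.4% with DMSO and 36.1%, 35% and 38.3% with mocetinostat. Both shares were apart in all samples, *LAMB3* above and *LAMB2* below its controls, while the share of *LAMB1* overlapped (42.5% ± 3.13 and 43.5% ± 2.19, SD, n = 3). The size of these shares depends on the length used. With MANE lengths the mean share of *LAMB1* was 66.9% with DMSO and 68% with mocetinostat. By the same lengths *LAMB2* held 29.2% and 20.9%, and *LAMB3* 3.84% and 11%. The directions and the overlap were the same.

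In the alpha sum, *LAMA3* held 2.38%, 2.26% and 1.87% with DMSO and 7.33%, 7.38% and 6.97% with mocetinostat. *LAMA1* held 41.4%, 43.4% and 40% with DMSO and 34.8%, 31.5% and 34.2% with mocetinostat. The share of *LAMA1* was lower in every treated sample although its level was higher. *LAMA2* went from 0.196% ± 0.0254 to 0.567% ± 0.0249 of the alpha sum without overlap, and the shares of *LAMA4* and *LAMA5* overlapped. With MANE or coding lengths the *LAMA5* share no longer overlapped and was higher with mocetinostat.

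With 3 samples against 3 the exact two-sided permutation test cannot give a p below 0.1, and each separated share had that exact p of 0.1 (adjusted 0.15 over 9 shares). These shares were therefore separated but not past a threshold of 0.05. The 9 include the share of *LAMB4*, which rests on 0 counts in each DMSO sample and 1 count in each mocetinostat sample. They also include the share of *LAMA2*, which passed the filter only through its treated samples. The separation of these last shares is given as a description.

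**Figure D3:**
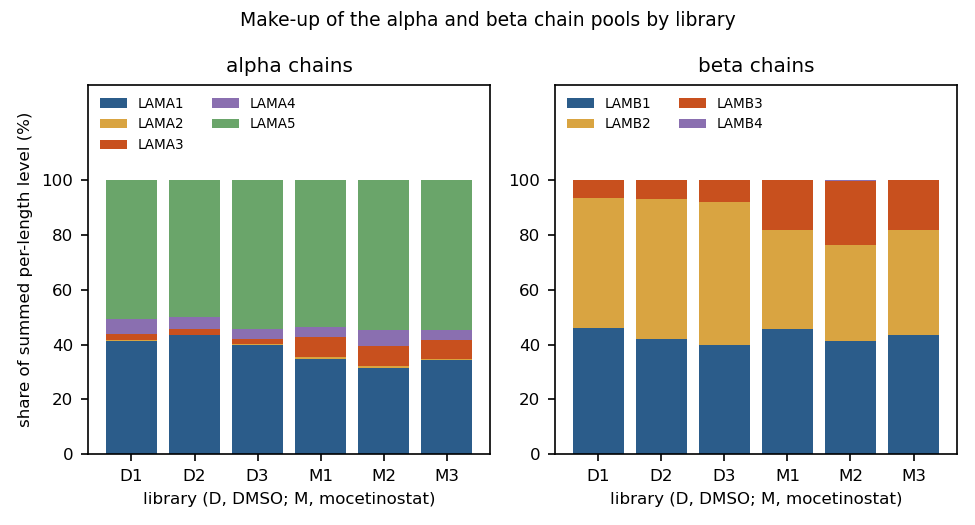
Share of each chain in the summed per-length level (CPM per kilobase of exon, percent) of alpha and of beta chains, with 1 bar for each DMSO sample (D1 to D3) and mocetinostat sample (M1 to M3). The *LAMB3* share is 6.25% to 7.77% in the DMSO bars and 18.1% to 23.5% in the mocetinostat bars, and the *LAMA3* share is 1.87% to 2.38% in the DMSO bars and 6.97% to 7.38% in the mocetinostat bars. With MANE lengths, not drawn, the mean *LAMB3* share is 3.84% with DMSO and 11% with mocetinostat, and *LAMB1* holds most of the beta sum.

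Ratios between chains, either of different classes or of the same class, were formed within each sample from levels per kilobase of exon. The log2 ratio of *LAMB1* to *LAMC1* was -0.37, -0.44 and -0.48 with DMSO and -1.04, -0.92 and -1 with mocetinostat. All treated samples were lower, a mean difference of -0.559. The ratio of *LAMB2* to *LAMB1* was also lower, by a difference of -0.506, with 0.06, 0.30 and 0.40 with DMSO and -0.34, -0.24 and -0.18 with mocetinostat. On the same log2 scale, *LAMA3* to *LAMA5* was higher by 1.67, *LAMB3* to *LAMB1* by 1.49 and the summed alpha chains to *LAMC1* by 0.254, each without overlap. These 5 ratios had the smallest exact two-sided permutation p, 0.1 (adjusted 0.1 over 5 ratios). The level of a ratio, and for some its sign, depends on the length used. With MANE lengths the mean log2 ratio of *LAMB1* to *LAMC1* was 1.2 with DMSO and 0.64 with mocetinostat. For *LAMB2* to *LAMB1* it was -1.2 and -1.7. The difference between conditions for a pair of single genes does not change with the length.

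Trimers were read from the mRNA as the lowest per-length level among the 3 chains of each, which describes mRNA only and does not measure assembled protein. Of 12 known trimers considered, the alpha chain was the lowest of the 3 in all 6 samples for 10. The lowest-chain level was higher with mocetinostat without overlap for 12 of 12, while 33.7% of all genes tested were higher without overlap. For most trimers this repeats the alpha chain values given above. For laminin-211, laminin-221 and laminin-213 it repeats *LAMA2*, which entered the test only through its treated samples. Trimers that share their lowest chain share its values, so these are not 12 separate observations.

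Per kilobase of exon, laminin-511 and laminin-521 had the highest lowest-chain levels, although with DMSO laminin-111 and laminin-121 had the higher means when MANE or coding lengths were used. For laminin-511 these were 9.70, 9.24 and 10.9 CPM per kilobase with DMSO and 19.4, 20.3 and 18.9 with mocetinostat, those of *LAMA5*. In laminin-521 the lowest chain was *LAMA5* in every DMSO sample, but in some mocetinostat samples it was *LAMB2*. Laminin-111 and laminin-121 followed, set by *LAMA1* at 8.01 ± 0.0638 with DMSO and 12 ± 0.452 with mocetinostat (SD, n = 3).

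Trimers with alpha3 and alpha2 had the largest ratios of mocetinostat to DMSO by this measure. For laminin-311 and laminin-321 the level was that of *LAMA3*, 0.416 ± 0.0397 and 2.59 ± 0.172, a ratio of 6.23. For laminin-211, laminin-221 and laminin-213 it was that of *LAMA2*, 0.0379 ± 0.00655 and 0.203 ± 0.00802, a ratio of 5.36. They remained below the alpha5 and alpha1 trimers after treatment.

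Laminin-411 and laminin-421 were set by *LAMA4* (0.861 ± 0.169 and 1.55 ± 0.545), and laminin-423 by *LAMA4* or *LAMC3*.

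**Figure D4:**
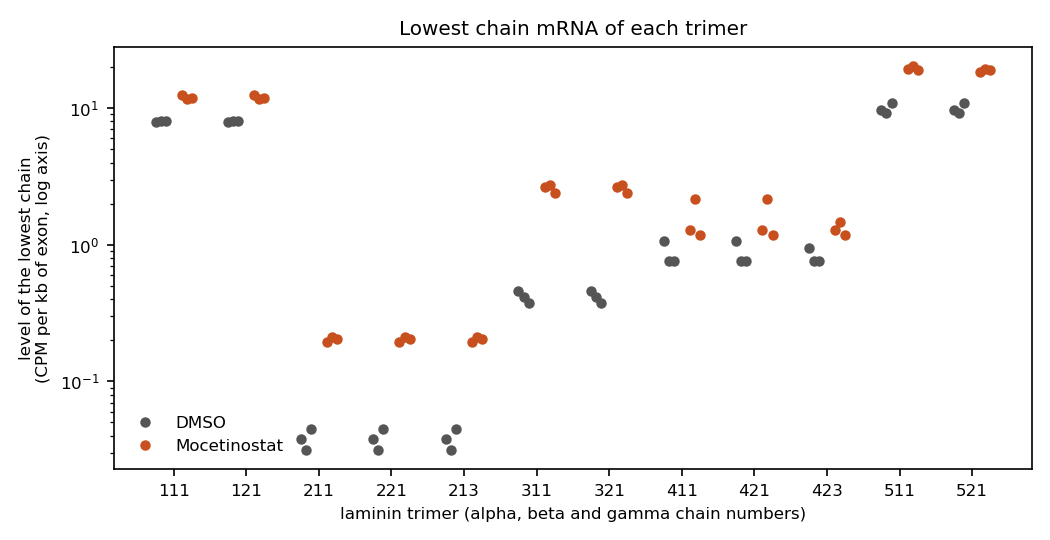
Per-length level of the lowest of the 3 chains for 12 laminin trimers (CPM per kilobase of exon, log axis), with 1 point for each of 3 DMSO and 3 mocetinostat samples. Every trimer lies higher with mocetinostat, alpha5 trimers are highest (with DMSO, below alpha1 trimers in mean with MANE or coding lengths), alpha2 trimers are lowest, and trimers limited by the same chain repeat its points.

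Genes whose products bind, anchor or process laminins were counted by list from the same fit, and each count is to be read against the 32.9% of all genes that were higher, the 31.4% lower, the 20.2% called higher and the 8.18% called lower. Of 7 laminin-binding integrin chains, 6 were higher and 0 lower at an adjusted p under 0.05, with 5 called and a median log2 fold change of 2.35. *ITGA6* and *ITGB4*, which form the laminin receptor of hemidesmosomes, had log2 fold changes of 2.65 and 3.05 (adjusted p = 5.87e-37 and 9.35e-14 by edgeR). *ITGA6* had 45.9, 48.7 and 53.3 CPM with DMSO and 291, 320 and 318 CPM with mocetinostat, and *ITGB4* had 1.54, 1.46 and 4.57 against 18.8, 20.5 and 23.2 CPM. Both were far higher in every treated sample, and the log2 fold change of *ITGB4* was 3.72 without DMSO replicate 3, the highest control. *ITGB4* passed the filter only through the treated samples, so its place among the 6 and the 5 is given as a description. *ITGA1*, *ITGA2* and *ITGA7*, alpha chains that pair with beta1, had log2 fold changes of 2.47, 2.14 and 2.35. *ITGA3*, the most abundant of the list and a receptor for laminin-511, had 0.33 (adjusted p = 1.24e-05 by edgeR).

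Among 8 other laminin receptors, 5 were higher and 1 lower, with 2 called (25%, near the 20.2% of all genes), the proteoglycans *SDC3* (log2 fold change 1.85) and *SDC4* (1.31). *RPSA*, the laminin receptor that is also a ribosomal protein and the most abundant of the list with DMSO, had 641, 566 and 549 CPM with DMSO and 401, 426 and 384 CPM with mocetinostat. Its log2 fold change was -0.54 (adjusted p = 2.8e-09 by edgeR), and -0.01 with scaling to *GAPDH*. Of 11 tested genes that anchor laminin receptors to the cytoskeleton, 8 were higher and 0 lower. The 4 called were members of the dystrophin complex, *DTNA* (4.10), *SNTB1* (1.6), *DMD* (1.55) and *DTNB* (1.41), and *SNTB1*, on 8 to 40 counts, lost its call without mocetinostat replicate 1 (adjusted p = 0.0505 by edgeR). *DTNA* and *SNTB1* passed the filter only through the treated samples, so their calls are given as a description. *PLEC*, the hemidesmosomal linker with the most reads, had a log2 fold change of 0.27 with overlapping conditions, and 0.08 without DMSO replicate 1.

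Basement membrane partners numbered 16 tested, of which 13 were higher and 0 lower. *TINAGL1* (2.15), the linker *NID2* (1.15), which ties laminin gamma1 to collagen IV, the perlecan gene *HSPG2* (1.14) and *COL15A1* (1.01) were called. *COL15A1* kept its call in 9 of 14 alternatives. It was 0.97 with DESeq2, 0.76 without the filter, 0.90 without DMSO replicate 1, 0.94 without mocetinostat replicate 1 and 0.99 without mocetinostat replicate 3. *COL4A4*, a collagen IV chain of specialized basement membranes, was also called, with 0, 1 and 0 counts in the DMSO samples and 102, 39 and 55 in the mocetinostat samples, too few in the controls for a fold. *COL4A1*, the ubiquitous collagen IV chain, overlapped between conditions at 2273 ± 384 and 2194 ± 80.8 CPM (SD, n = 3) with a log2 fold change of -0.05, which reversed sign under some settings. The netrins, whose short arms resemble those of laminins, had 3 of 6 listed genes tested, and *NTN1* (1.74), *NTN4* (1.21) and *NTNG2* (2.80) were called. *NTNG2*, with 10, 3 and 7 counts in the DMSO samples, passed the filter only through the treated samples.

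Dystroglycan binds laminin alpha chains through a sugar built by a set of glycosyltransferases and kinases, and this set was split. Of 10 tested, 2 were higher and 5 lower, with a median log2 fold change of -0.33. *LARGE2*, which extends the laminin-binding repeat, had a log2 fold change of 1.57, while *POMK*, a kinase that acts on the sugars below it, had -1.46. *LARGE2* passed the filter only through the treated samples. *POMK* had 42.4, 38.7 and 33.2 CPM with DMSO and 14.1, 11.2 and 15.7 with mocetinostat, apart in every sample. *POMT2*, the gene with the highest mean over all 6 samples, had -0.41 with overlapping conditions, 0.12 with scaling to *GAPDH* and -0.26 (adjusted p = 0.141 by edgeR) without mocetinostat replicate 3.

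Of 6 tested proteases that cut laminin chains or related matrix, 2 were called higher, *PLAT* (2.31) and *TLL2* (4.42, on 2 to 8 counts with DMSO), and 4 were lower at an adjusted p under 0.05 with none called. *PLAU*, the most abundant with DMSO, had a log2 fold change of -0.64, and -0.11 (adjusted p = 0.39 by edgeR) with scaling to *GAPDH*. Across these 7 lists and the 2 further laminin chains, 22 of 62 tested genes were called higher (35.5%, against 20.2% of all genes) and 1 lower (1.61%, against 8.18%). Of the 22, 7 passed the filter only through the treated samples, in which they were higher, namely *ITGB4*, *SNTB1*, *DTNA*, *COL4A4*, *NTNG2*, *LARGE2* and *TLL2*.

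**Figure D5:**
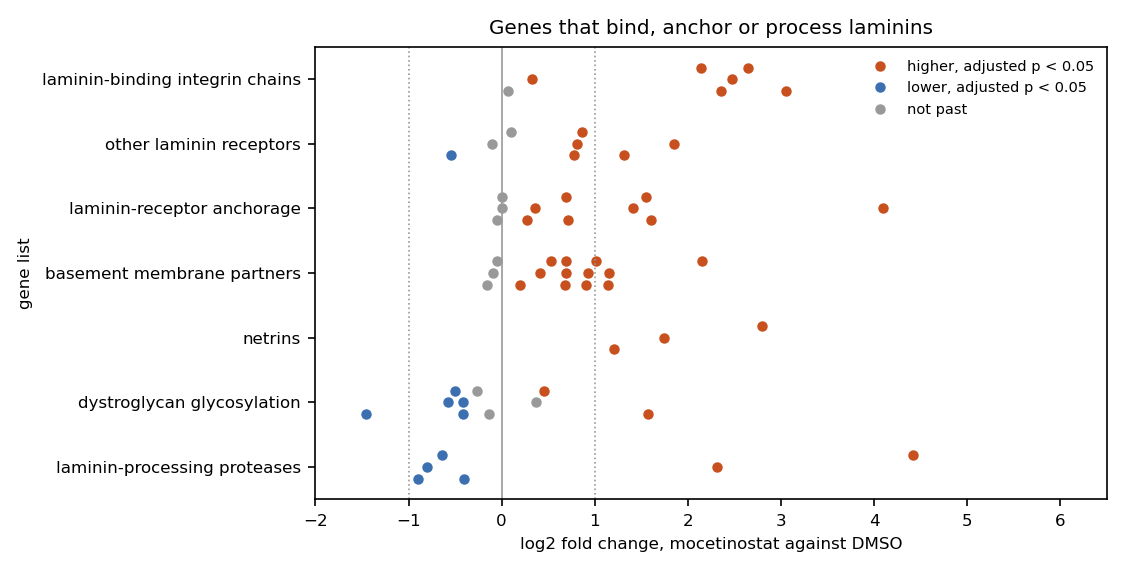
Log2 fold change of mocetinostat against DMSO for each tested gene of 7 lists, colored by the edgeR test, with dotted lines at the limits for a call. *COL4A4*, with at most 1 count per DMSO sample, is left out; 5 of 7 integrin chains and the 3 tested netrins lie beyond 1, and the glycosylation and protease lists hold genes on both sides of 0 with TMM scaling.

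*LAMB3* was the called chain with the most reads. Among 10261 genes with a mean of at least 10 CPM, those with the most similar pattern over the 6 samples were *BIRC3* (Pearson r = 0.9993), *MAFK* (r = 0.9979) and *CCDC92* (r = 0.9979), on log2 CPM. The samples form 2 conditions, so any gene with a treatment difference correlates, and 1255 genes had an r over 0.95 with *LAMB3*.

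Markers of 3 of 4 other cell types that make laminins had higher sums after mocetinostat, and those of Schwann cells overlapped. The 5 endothelial markers summed to 7.06 to 10.2 CPM with DMSO and 40.3 to 50 CPM with mocetinostat. *KDR* carried most of this (mean 0.337 and 24.4 CPM), with *VWF* and *PECAM1*, while *CDH5* (3.04 and 3.12 CPM) and *TIE1* (2.28 and 2.56 CPM) did not pass the test. The 5 epithelial markers summed to 0.416 to 0.884 and 24.5 to 39 CPM, mostly *CDH1* (mean 0.258 and 19.8 CPM), with *EPCAM* and *TP63*. The keratins *KRT5* (mean 0 and 0.615 CPM) and *KRT14* (0.0302 and 0.198 CPM) stayed below 1 CPM. The 4 muscle markers summed to 0.271 to 1.18 and 7.46 to 10.5 CPM, mostly *DES* and *MYH11*. Among them *MYOD1* (mean 0 and 0.824 CPM) and *CKM* (0.0491 and 0 CPM) stayed near 0. The 4 Schwann markers summed to 1.27 to 3.54 and 0 to 5.39 CPM, with *S100B* at 0 counts in every sample. In this single line, their part in the rise of *LAMA2*, *LAMA3* and *LAMB3* was not tested.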

How the data were processed

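For the 6 samples the authors deposited a single table of raw counts, whole numbers for each gene that were not normalized. Per the labels and the study's methods, reads were aligned to GRCh38 with STAR 2.6.1d and assigned to genes with featureCounts 1.6.4. The strand setting and the treatment of reads with several matches are not given in the sources used here.

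From the counts, edgeR 4.0.16 (limma 3.58.1, R 4.3.3) computed TMM factors, kept 13966 genes with filterByExpr (minimum count 10) and ran its quasi-likelihood test with treatment as the only term and Benjamini-Hochberg adjustment over all genes. As in the study, a call needed an adjusted p below 0.05 together with a log2 fold change above 1 or below -1. Levels per length used the exon union of GENCODE release 44 on GRCh38, to which 99.5% of genes were matched by identifier. Shares and ratios were tested by exact permutation. Replicate pairs within a condition differed by more than sampling noise (chi-square per degree of freedom 1.96 to 7.19 over 6 pairs). Each sample therefore counted once. The edgeR p-values and intervals rest mostly on the spread between samples pooled over all genes, and little on the spread of each gene alone. The total was 71.4 degrees of freedom for the laminin genes. Standard errors were derived from the log2 fold change and the F statistic of the test. The fit was tested on simulated counts.

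Alternatives were DESeq2 1.42.0, other size factors, other filters, thinning to 1619344 counts, a replicate block, each sample left out, and other gene lengths. Named genes were the laminin chains, the genes called in each list (the 4 with the smallest p in a direction if over 6), the gene of each list with the highest mean over the 6 samples, and the 3 genes most like the called chain with the most counts. The members and lists were chosen with earlier results of these data known. Some genes of the laminin and glycosylation lists, and the results that need them, are not reported here. Python 3.11.15 with pandas 2.3.3, scipy 1.17.1 and matplotlib 3.10.9 made the summaries and figures.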

Additional observations from a re-analysis of the deposited data

How the results depend on the processing

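Of 138 laminin log2 fold changes recomputed under the alternatives, 127 kept their direction and their side of the 0.05 threshold. *LAMB1* was -0.17 without the filter and 0.61 (*GAPDH* scaling), 0.16 (at least 10 counts in every sample) and 0.18 (thinned libraries), the latter 3 past the threshold, and *LAMB2* was 0.10 with *GAPDH* scaling. *GAPDH* scaling moved the median of all genes by 0.53 and dropping the filter moved it by -0.25 for the genes of the main test. Under TMM scaling *GAPDH* itself had a log2 fold change of -0.53, which scaling to it sets to 0. *GAPDH* scaling gave 7 laminin chains called higher, 0 lower at an adjusted p under 0.05, 34 partner genes called higher and 0 lower, and dropping the filter gave 3 partner genes called lower. With each sample left out in turn, 3 to 4 chains were called higher, 1 was lower at an adjusted p under 0.05, and 1 to 2 partner genes were called lower (2 without mocetinostat replicate 1 or 3). *COL4A1* was 0.47 with *GAPDH* scaling, 0.03 with at least 10 counts in every sample, 0.04 after thinning and -0.19 to 0.05 with 1 sample left out, and *POMT2* was 0.12 with *GAPDH* scaling. The cause of these differences was not tested.

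Differences that were small against their spread changed sign. After thinning, the difference in the *LAMB1* share was -0.299 percentage points. When single samples were dropped, the difference ran from -0.98 to 0.322 percentage points for the *LAMA4* share and from -0.397 to 2.68 for the *LAMB1* share.

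No shared effect was seen between same-numbered samples, whose deviations from their condition means had correlations of -0.0174 to 0.013. These values cannot show whether the samples were paired by experiment. The replicate block gave 3 laminin chains called higher, 0 called lower and 22 partner genes called higher, as without it. Coding length from a protein table was planned and not run, because that table was not used here; MANE and GENCODE coding lengths were added after seeing the data. *LAMA2* was not tested with at least 10 counts in every sample or after thinning. Depth limits *LAMA2* and *LAMB4*, with at most 26 counts in a sample.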
